A study of Homo sapiens with 36 samples.

Results

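The miRNAs described here are hsa-miR-146a-5p, hsa-miR-146b-5p and hsa-miR-146b-3p, the 3 rows of the miR-146 family taken by name from a table of 1508 mature miRNAs. All 3 passed the low-count filter and were among the 360 miRNAs tested. The cells were WI-38, a strain of normal human lung fibroblasts, and every condition had 2 biological replicates, giving 36 small RNA libraries in 18 conditions. Young proliferating cells without treatment were the control (Ctrl). In the PMD-Sen series, plasma membrane damage was caused with the detergent SDS, and in the DDR-Sen series, DNA damage was caused with doxorubicin (DXR), a topoisomerase poison. Cells were collected at the end of the exposure (D0), which the study describes for SDS as a time before the wash and in its methods as the day of the wash, so D0 is read here as the end of treatment. Later collections were daily up to D4 and then on D6, D8 and D16 after the agent had been removed. RS cells had reached replicative senescence by serial passage. A single fibroblast strain was used for all groups, and in bulk cultures fewer cells that express a miRNA and less of that miRNA per cell cannot be told apart.

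miR-146a and miR-146b are paralogs made from separate genes. Both are known as negative feedback regulators of inflammatory signaling: NF-kB activates their transcription, and the mature miRNAs repress IRAK1 and TRAF6. These are signaling proteins that carry interleukin-1 and Toll-like receptor signals to NF-kB. In senescent fibroblasts, they are known for restraining the secretion of IL-6 and IL-8, cytokines of the senescence-associated secretory phenotype. The 3p strand of the miR-146b hairpin is the opposite arm of the same precursor and has a different seed and so different predicted targets.

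The mature sequences are shown because the 2 5p members carry the same seed, while the courses described here differ between them. Capitals mark the seed, bases 2 to 8 from the 5′ end.
hsa-miR-146a-5p: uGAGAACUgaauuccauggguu
hsa-miR-146b-5p: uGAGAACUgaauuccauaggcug
hsa-miR-146b-3p: gCCCUGUGgacucaguucuggu
The sequences and positions are those of RefSeq on GRCh38.p14. miR-146a-5p lies at chr5:160485372-160485393 on the plus strand, in the hairpin MIR146A, which GENCODE places inside an exon of the long noncoding RNA gene MIR3142HG. miR-146b-5p lies at chr10:102436520-102436542 and miR-146b-3p at chr10:102436557-102436578, both on the plus strand of the hairpin MIR146B, which overlaps no other annotated gene. Over their first 22 bases the 5p members are identical at 20 positions. They differ by G18A and U21C, counted from the 5′ end with the miR-146a base first, and miR-146b-5p is 1 base longer. Among the 2370 mature human miRNAs of the RefSeq table, 3 have this seed, and the other one, hsa-miR-7153-5p, was not analysed here. A read that fits several miRNAs is divided between them in such counts. The deposited values of the 3 members, before any rounding, were exactly whole in all 36 libraries.

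Levels are in CPM, a count relative to the total of its library, with totals scaled by edgeR's TMM method. miR-146b-5p was the abundant member, with a mean of 1002 CPM over the libraries and rank 83 of the 1508 miRNAs. miR-146a-5p averaged 39.9 CPM (rank 261) and miR-146b-3p 24.2 CPM (rank 293). All are of nearly the same length, but adapter ligation can differ between sequences, so these differences between miRNAs are read as orders of size. The counts behind the values were 66 to 4228 for miR-146b-5p, 4 to 81 for miR-146a-5p and 1 to 117 for miR-146b-3p. A count of 3 was taken as the floor of a library, which covers counting error only. Several values of miR-146b-3p lay at or under it, in the first Ctrl library and in both series up to D6.

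The library totals ranged from 81668 to 1933435 counts, and both extremes were PMD-Sen libraries. Totals were 81668 to 378489 on D0 to D2 of PMD-Sen and 325893 to 1933435 on D6 to D16, against 311049 to 1010185 and 323231 to 558755 in the same windows of DDR-Sen. The late PMD-Sen libraries were thus the deeper ones. The 5 fibroblast marker miRNAs (miR-199a-3p, miR-199a-5p, miR-214-3p, miR-143-3p and miR-145-5p) were detected in every library and made up 0.864% to 3.04% of it in sum. Of the blood cell markers, miR-142-5p, miR-223-3p and miR-451a were at 0 in 34, 32 and 19 of the 36 libraries, and miR-486-5p lay between 134 and 1108 CPM. The epithelial markers miR-141-3p and miR-205-5p were at 0 in 34 and 33 libraries, whereas the epithelial marker miR-200c-3p was detected in every library, at 7.31 to 151 CPM. The liver marker miR-122-5p, at 6.44 to 264 CPM, and the endothelial marker miR-126-3p, at 18.4 to 192 CPM, were also detected in every library.

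The first question was how each member moved along each course of senescence. The mean of miR-146b-5p in PMD-Sen was lowest on D2 and highest on D16, and its range over days was narrower in DDR-Sen. In Ctrl, its 2 libraries were at 756 and 901 CPM. In PMD-Sen it was at 607 and 947 CPM on D0, at 522 and 688 on D1, at 353 and 513 on D2 and at 396 and 474 on D3. It was then at 437 and 524 CPM on D4, at 453 and 614 on D6, at 575 and 1009 on D8 and at 1085 and 2301 on D16. From D1 to D6, both PMD-Sen libraries lay below both Ctrl libraries on each day, and on D16 both lay above them. Such orders of libraries, here and below, were not counted over all tested miRNAs and are descriptions.

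In DDR-Sen, miR-146b-5p was at 864 and 1105 CPM on D0, at 1246 and 1404 on D1, at 1024 and 1365 on D2 and at 902 and 1228 on D3. Later it was at 964 and 975 CPM on D4, at 903 and 1234 on D6, at 1382 and 1427 on D8 and at 1755 and 1944 on D16. Its fitted level was above Ctrl on 8 of 8 days. RS cells had 1472 and 1703 CPM, both above Ctrl and close to the D16 values of both series.

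**Figure D1:**
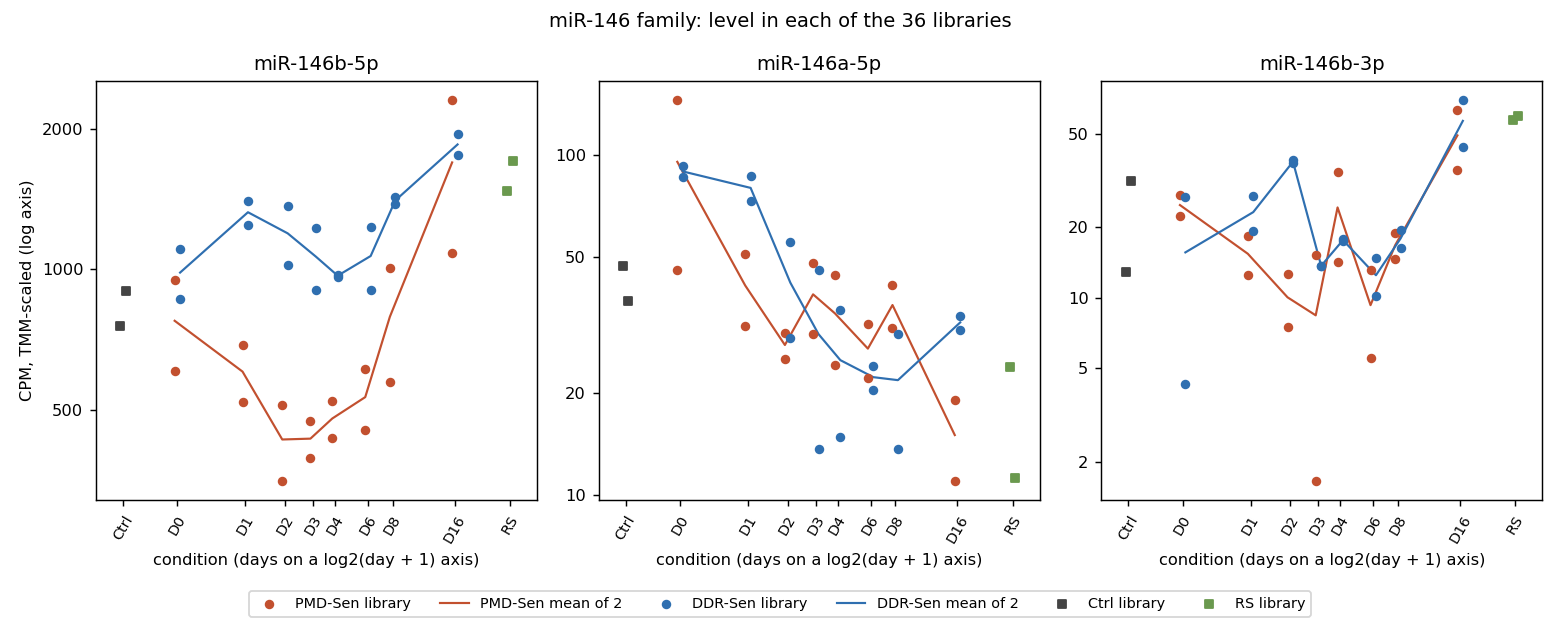
Level of the 3 members in each library (points) and the mean of the 2 replicates (lines) in CPM on a log axis, against the condition, with days on a log2(day + 1) axis. miR-146b-5p in PMD-Sen dips to a mean of 433 CPM on D2 and reaches 1693 on D16, while miR-146a-5p is highest on D0 in both series.

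The level of miR-146b-5p differed among the PMD-Sen days by more than the spread between replicates, in a test that does not say which days differ. This test for any difference among the 8 days, by edgeR's quasi-likelihood method, gave a Benjamini-Hochberg adjusted p of 6.47e-05, rank 2 of the 360 miRNAs, where 20.3% of all tested miRNAs were called. Late days (D6, D8 and D16) were higher than early days (D0, D1 and D2) by 0.61 log2 (SE 0.18, edgeR adjusted p 0.00824), a 1.52-fold rise, where 33.6% of the tested miRNAs were called. This rise rested on D16: it was 0.14 without that day (adjusted p 0.635), 0.67 in a fit of the early and late PMD-Sen libraries alone (adjusted p 0.0505), and 0.37 without the first D16 replicate (adjusted p 0.146), the deepest library. In DDR-Sen, the test among days gave an adjusted p of 0.149, where 13.9% were called, and late days exceeded early days by 0.27 log2 (SE 0.17, adjusted p 0.218), where 27.5% were called. The test among days in DDR-Sen did pass with 4 of the alternative settings, with adjusted p between 0.0081 and 0.0376. The late minus early changes of the 2 series differed by 0.33 log2 with a 95% interval of -0.17 to 0.83 (edgeR adjusted p 0.391), where 15.6% of the miRNAs were called, so a difference between the series in this change was not shown.

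miR-146a-5p was highest at the start of both series. In Ctrl its 2 libraries were at 37.2 and 47.3 CPM, from 13 and 11 counts. In PMD-Sen it was at 45.9 and 145 CPM on D0, at 31.4 and 51.3 on D1, at 25.2 and 30.1 on D2, and between 22.1 and 48.1 in the libraries of D3 to D8. On D16 it was at 11.0 and 19.0 CPM, from 5 and 35 counts. The 2 D16 libraries were the lowest of the PMD-Sen series, whereas the high level on D0 stood in 1 of its 2 replicates.

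In DDR-Sen, miR-146a-5p was at 85.9 and 93.0 CPM on D0 and at 73.4 and 86.5 on D1. It was at 29.0 and 55.3 CPM on D2, at 13.7 and 45.8 on D3, at 14.8 and 35.1 on D4, at 20.4 and 24.0 on D6, at 13.7 and 29.9 on D8, and at 30.7 and 33.7 on D16. All 4 libraries of D0 and D1 lay above every other DDR-Sen library and above both Ctrl libraries. RS cells had 11.3 and 23.9 CPM, both below Ctrl.

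Late days were lower than early days for miR-146a-5p in both series. The difference was -1.43 log2 in DDR-Sen (SE 0.32, edgeR adjusted p 0.00125), a ratio of 0.370, where 27.5% of the tested miRNAs were called. In PMD-Sen it was -0.93 log2 (SE 0.35, edgeR adjusted p 0.0365), a ratio of 0.526, where 33.6% were called. The first of these was called with every alternative setting and every left-out library. The second was lost without the D0 replicate that stood at 145 CPM (-0.46, adjusted p 0.406), without D0 (-0.46, adjusted p 0.375) and without D16 (-0.61, adjusted p 0.236). It was also lost without either D2, D6 or D8 replicate, the first D1 or the second D16 replicate, at -0.94 to -0.74 log2. The test for any difference among days was called in DDR-Sen (adjusted p 0.0132) and not in PMD-Sen (adjusted p 0.110), where 13.9% and 20.3% of the tested miRNAs were called. The difference of the series in the late minus early change was 0.51 log2 (95% interval -0.46 to 1.47, edgeR adjusted p 0.51), so the fall was not shown to be of different size in the 2 series. Markers of other tissues moved both ways from early to late days. The liver marker miR-122-5p fell, at -2.69 log2 in PMD-Sen and -1.33 in DDR-Sen, and the epithelial marker miR-200c-3p fell in PMD-Sen, at -1.90, and was at -0.60 in DDR-Sen without a call. The blood marker miR-486-5p rose in DDR-Sen, at 0.59 (edgeR adjusted p 0.0336), and was at 0.41 in PMD-Sen (edgeR adjusted p 0.169), and the endothelial marker miR-126-3p was at 0.57 and 0.27 in PMD-Sen and DDR-Sen, called in neither. After membrane damage 2 of the 5 fibroblast markers fell late, and after DNA damage 4 did, where 33.6% and 27.5% of all tested miRNAs were called. The part of these changes in that of miR-146a-5p was not tested.

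miR-146b-3p followed the 5p arm of its own hairpin at a low count. In PMD-Sen its libraries were at 1.65 to 34.4 CPM from D0 to D8, from 1 to 11 counts, and at 35.2 and 63.7 CPM on D16. In DDR-Sen they were at 4.29 to 38.7 CPM from D0 to D8 and at 44.1 and 70.0 on D16. RS cells had 57.3 and 59.6 CPM, and Ctrl had 12.9 and 31.5. The 6 libraries of D16 and RS all lay above both Ctrl libraries. The test among days was called in PMD-Sen (edgeR adjusted p 0.0215) and not in DDR-Sen (adjusted p 0.0961), where 20.3% and 13.9% of the tested miRNAs were called. Late minus early differences were 0.38 log2 in PMD-Sen (SE 0.49, adjusted p 0.571) and 0.03 in DDR-Sen (SE 0.39, adjusted p 0.968), and both turned negative when D16 was left out, to -0.27 and -0.60. The PMD-Sen call among days was lost without the second D1 replicate (adjusted p 0.0544), the first D16 replicate (0.476) or the second D6 replicate (0.0557).

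Each condition was then set against the same 2 Ctrl libraries, which all 17 comparisons share. miR-146b-5p was called higher in 3 of the 17 conditions, and these were D16 of both series and RS. On D16 the difference was 1.04 log2 after membrane damage (SE 0.29, edgeR adjusted p 0.0166) and 1.15 after DNA damage (SE 0.29, edgeR adjusted p 0.00481). In RS it was 0.94 (SE 0.29, edgeR adjusted p 0.0196), or 2.05-, 2.23- and 1.91-fold. The share of all tested miRNAs called was 16.7%, 23.1% and 22.5% in the same order. Without either Ctrl library, 0 of the 3 calls were left, with differences from 0.81 to 1.27 log2. The PMD-Sen D16 difference was 0.34 (adjusted p 0.601) without its first replicate, the RS difference was 0.79 (adjusted p 0.142) without the second RS replicate and 0.90 (adjusted p 0.0764) in a fit of the RS and Ctrl libraries alone, and the DDR-Sen D16 difference was 1.14 (adjusted p 0.0578) without its second replicate.

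On the other days, miR-146b-5p in PMD-Sen lay furthest below Ctrl on D2, at -0.93 log2 (SE 0.31, edgeR adjusted p 0.122), and on D3, at -0.94 (SE 0.30, edgeR adjusted p 0.182). The background was small there: of the tested miRNAs, 0.278% were called on D0, 2.22% on D1, 2.5% on D2, 0.278% on D3, 3.89% on D4, 6.67% on D6 and 10% on D8 of PMD-Sen. In DDR-Sen the shares were 0% on D0, 0.278% on D1 and D2, 4.44% on D3, 6.67% on D4, 10.6% on D6 and 11.4% on D8. On D0 of DDR-Sen, edgeR called 0 miRNAs at adjusted p and 34 at an unadjusted p under 0.05, and DESeq2 called 0.

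miR-146a-5p was called in 0 of 17 conditions by edgeR and by DESeq2 at adjusted p, and had an unadjusted p under 0.05 in 2. These were PMD-Sen D16, at -1.35 log2 (SE 0.57, edgeR adjusted p 0.0892), and RS, at -1.29 (SE 0.61, edgeR adjusted p 0.124). On D0 its differences from Ctrl were 1.15 log2 in PMD-Sen (SE 0.61, adjusted p 0.518) and 1.09 in DDR-Sen (SE 0.54, adjusted p 0.515). miR-146b-3p was also called in 0 of 17 by both tools, with 1 unadjusted p under 0.05, in RS, at 1.32 log2 (SE 0.65, edgeR adjusted p 0.131). It was 1.13 log2 above Ctrl at PMD-Sen D16 (SE 0.64, adjusted p 0.198) and 1.27 at DDR-Sen D16 (SE 0.65, adjusted p 0.154). The thresholds of the study were an unadjusted p below 0.05 with an absolute log2 fold change above 1. They were applied here to the edgeR values, whereas the study used DESeq2's Wald test. With them, miR-146a-5p and miR-146b-5p passed in 2 of 17 conditions each and miR-146b-3p in 1, where 9.9% of all 6120 values passed. For miR-146b-5p these were D16 of both series, while RS, at 0.94 log2, fell short of the fold change. The study reports miR-146b-5p as upregulated at D16 of both series and in RS.

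The second question was where membrane damage and DNA damage differed. Of the 3 members, miR-146b-5p alone was called: its level in PMD-Sen was below that in DDR-Sen over D1 to D16, with a difference of -0.97 log2 (SE 0.11, edgeR adjusted p 4.13e-07), a ratio of 0.509, with the lowest p of the 360 miRNAs. In this comparison 20% of the tested miRNAs were called. The value stayed between -1.08 and -0.88 with each of the 28 libraries left out. Both PMD-Sen libraries lay below both DDR-Sen libraries on 6 of 8 days, and the groups overlapped on D0 and D16. The share of all tested miRNAs ordered in this way was not counted, so this is a description.

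By day, the difference was -0.35 log2 on D0, -1.12 on D1, -1.45 on D2, -1.30 on D3, -1.02 on D4, -0.99 on D6, -0.82 on D8 and -0.12 on D16, each with an SE of 0.29 to 0.31. It was called on D1 (edgeR adjusted p 0.0426), D2 (edgeR adjusted p 0.00658) and D3 (edgeR adjusted p 0.03). On D4 the adjusted p was 0.051. The share of all tested miRNAs called was 1.67% on D0, 1.94% on D1, 4.17% on D2, 0.833% on D3, 3.33% on D4, 0.278% on D6, 0% on D8 and 0.556% on D16. On D8, edgeR called 0 miRNAs at adjusted p, with 45 at an unadjusted p under 0.05, and DESeq2 called 4. The day calls rest on 2 libraries a side: 3 became 1 with total counts in place of TMM, and also when any of 10 single libraries was left out (Ctrl 1, PMD-Sen D1 2, D2 2, D4 1, D6 1 and D6 2, and DDR-Sen D1 1, D2 1, D4 2 and D6 2, where the last digit is the replicate). The D3 call was also lost without any 1 of the 4 libraries of that day, at -1.48 to -0.98 log2. A fit of the compared libraries alone lost D1 (adjusted p 0.0645) and called D4 (0.0297), D6 (0.0411) and D8 (0.000434) beside D2 and D3. DESeq2 called 4 days, with D4 among them (adjusted p 0.0275), and DESeq2's size factors lost D3 (adjusted p 0.0504). With the replicate block D4 was called (adjusted p 0.0303). Without the second PMD-Sen D16 replicate, the D16 difference turned to 0.31.

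**Figure D2:**
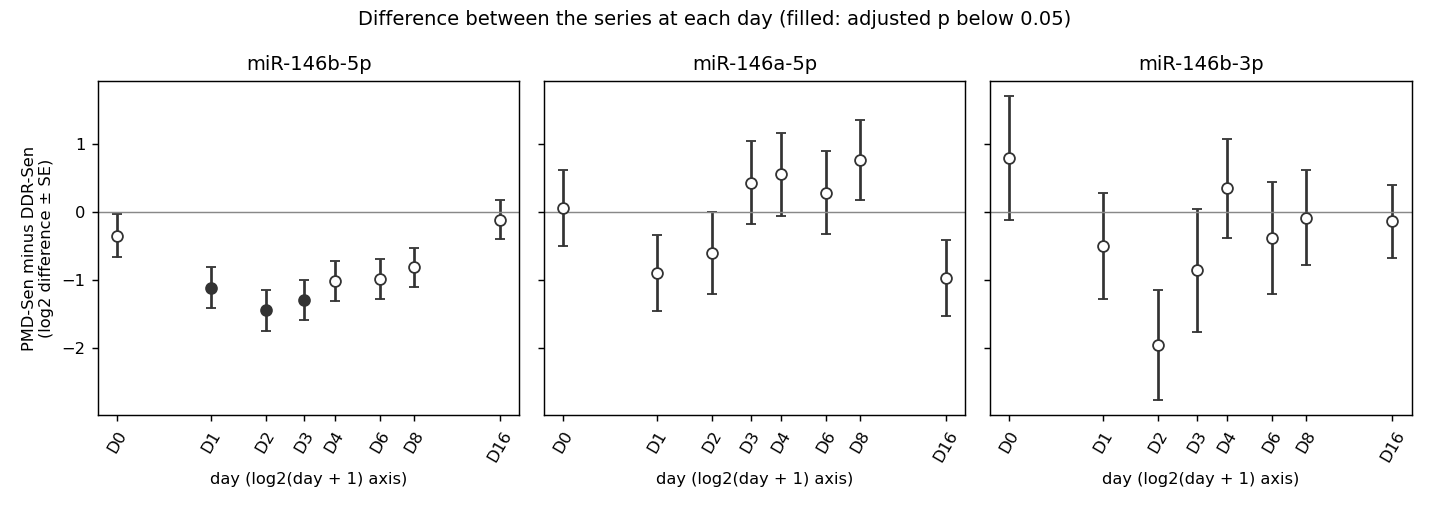
Difference between PMD-Sen and DDR-Sen at each day for the 3 members, in log2 with its SE (bars), where filled points are those with an adjusted p below 0.05. miR-146b-5p lies below 0 on every day, from -1.45 on D2 to -0.12 on D16, while the points of miR-146a-5p lie on both sides of 0.

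miR-146a-5p differed between the series by -0.07 log2 over D1 to D16, with a 95% interval of -0.52 to 0.39 (edgeR adjusted p 0.887). By day its differences ran from -0.98 to 0.76 log2, with 0 of 8 called by edgeR or DESeq2 and 0 at an unadjusted p under 0.05. The mean turned to 0.10 with total counts in place of TMM, a scaling that moved the median of all tested miRNAs in this comparison from 0.02 to 0.18. Relative to that median, miR-146a-5p was at -0.08 with TMM and -0.09 with total counts, and miR-146b-5p at -0.99 with both. miR-146b-3p differed by -0.52 log2 (95% interval -1.10 to 0.07, edgeR adjusted p 0.211), with 0 of 8 days called by either tool and 1 at an unadjusted p under 0.05.

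The blood marker miR-486-5p also had a negative difference between the series over D1 to D16, at -1.09 log2 (SE 0.14, edgeR adjusted p 1.44e-06), and its mean level correlated with that of miR-146b-5p over the 18 conditions (r = 0.58, across conditions that share library preparation, given as a description). The study lists miR-486-5p among known senescence-associated miRNAs, upregulated in DDR-Sen from D1 to D16. The other 3 measured blood markers did not exceed 4 counts in any library. Between the series, the liver marker miR-122-5p was at -0.23 log2 and the epithelial marker miR-200c-3p at -0.05. The endothelial marker miR-126-3p was at -0.18, and none of these was called. Of the 5 fibroblast markers, 1 was called, miR-145-5p at 0.25 (edgeR adjusted p 0.0479). The part of blood-derived RNA, and of depth, in the difference of miR-146b-5p was not tested.

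Since scaling and depth act on both 5p paralogs of a library alike, their ratio was compared within libraries, as log2 of miR-146b-5p over miR-146a-5p with 0.5 count added to each. miR-146b-5p outnumbered miR-146a-5p in all 36 libraries, by 6.33- to 141-fold. The ratio was 15.3 and 23.4 in the Ctrl libraries. In PMD-Sen it was 6.33 and 12.1 on D0, between 9.62 and 31.7 on D1 to D8, and 89.7 and 119 on D16. In DDR-Sen it was 9.16 and 12.7 on D0, 16.1 and 16.7 on D1, 44.3 and 97.1 on D8, and 55.5 and 55.6 on D16. RS cells had 58.8 and 141. The D16 and RS libraries thus all had ratios above those of Ctrl and of D0 to D2.

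**Figure D3:**
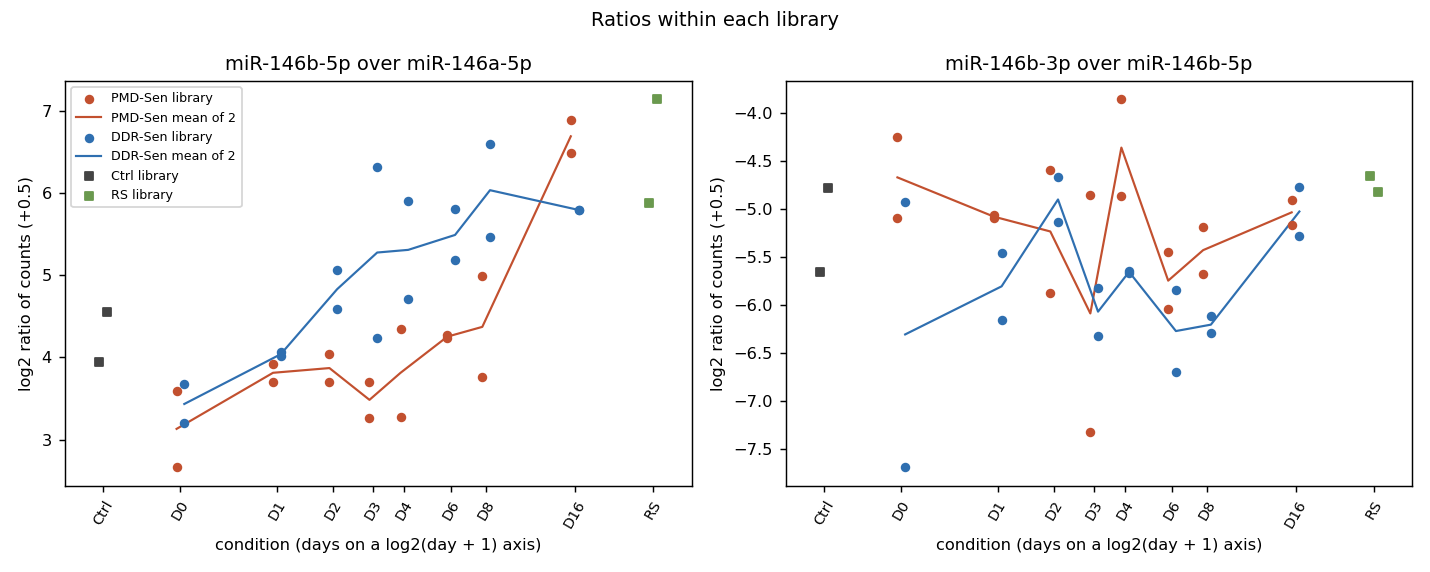
Log2 ratio of counts within each library (points) and the mean of the 2 replicates (lines), for the 5p paralogs (left) and for the 2 arms of miR-146b (right), against the condition. The paralog ratio rises from means of 3.13 and 3.43 on D0 to 6.69 and 5.80 on D16 in PMD-Sen and DDR-Sen, and the DDR-Sen line runs above the PMD-Sen line until D8.

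The ratio rose from early to late days in both series. In DDR-Sen it went from 4.10 ± 0.66 to 5.77 ± 0.48 log2 (SD, n = 6 libraries each), a rise of 1.67 log2 or 3.19-fold. The exact two-sided permutation test gave p = 0.00216, the smallest it allows, and 0.00767 after Benjamini-Hochberg adjustment over 6 ratio tests, with 6 of 6 late libraries above every early one. In PMD-Sen it went from 3.60 ± 0.49 to 5.11 ± 1.30 (SD, n = 6 libraries each), a rise of 1.50 log2 or 2.83-fold with 5 of 6 late libraries above every early one (exact permutation p = 0.00649, adjusted 0.013). The PMD-Sen rise was 0.71 without D16 (exact permutation test, adjusted p 0.0667) and 1.26 without D0 (exact permutation test, adjusted p 0.128), so neither passed. It was also lost without either D0 replicate, either D1 replicate or the second D2 replicate, at 1.31 to 1.57 log2 (exact permutation test, adjusted p 0.0519 to 0.0779). These tests take libraries as exchangeable units, although 2 of them share each day.

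Over D1 to D16, the paralog ratio in PMD-Sen was below that in DDR-Sen, with a difference of -0.93 log2 or a factor of 0.526 (4.33 ± 1.10 against 5.25 ± 0.84, SD, n = 14 libraries each). An exact two-sided test that permuted the series within each day gave p = 0.00256 (adjusted 0.00767). The value was -1.23 without D16 (exact permutation test, adjusted p 0.000257), and on D16 itself the order of the series was reversed. This is a direct test of the paralogs against each other: relative to miR-146a-5p, miR-146b-5p was lower after membrane damage than after DNA damage.

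As a share of the 5p reads of both paralogs, miR-146a was 4.66% in Ctrl (24 of the summed counts, Wilson 95% interval 3.15% to 6.84%). It was 10.7% on D0 of PMD-Sen (6.84% to 16.2%) and 8.12% on D0 of DDR-Sen (6.49% to 10.1%). On D16 it was 0.84% in PMD-Sen (0.618% to 1.14%) and 1.71% in DDR-Sen (1.19% to 2.45%), and in RS it was 1.00% (0.628% to 1.60%). These intervals cover counting error only, over the summed counts of 2 libraries. The D0 and D16 intervals did not overlap in either series.

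For the ratio of the miR-146b arms, none of the same comparisons passed with 0.5 count added, which does not show a steady relation. The 3p arm made up 0.387% to 6.17% of the reads of both arms over all 36 libraries, with 1.68% and 3.37% in Ctrl and 3.38% and 3.74% in RS. From early to late days, the log2 ratio of 3p to 5p changed by -0.41 in PMD-Sen (exact permutation test, adjusted p 0.218) and by -0.16 in DDR-Sen (exact permutation test, adjusted p 0.786). PMD-Sen exceeded DDR-Sen by 0.42 over D1 to D16 (exact permutation test, adjusted p 0.128), which passed without the first PMD-Sen replicate of D2 (0.51, adjusted p 0.0369) or of D3 (0.60, adjusted p 0.0109). With 5 counts added in place of 0.5, the first and the last of these passed, at -0.96 (adjusted p 0.0104) and 0.65 (adjusted p 0.00607). The 3p arm had a median of 6.5 counts a library, so 5 added counts are close in size to the counts themselves.

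At D16, the 2 series and RS were compared directly. miR-146b-5p differed from RS by 0.10 log2 in PMD-Sen (95% interval -0.48 to 0.68) and by 0.22 in DDR-Sen (-0.37 to 0.80). miR-146b-3p differed by -0.19 (-1.28 to 0.90) and -0.05 (-1.17 to 1.07). miR-146a-5p differed by -0.06 in PMD-Sen (-1.29 to 1.17) and by 0.92 in DDR-Sen (-0.31 to 2.14). edgeR called 0 of these 6 differences at adjusted p, with 0 at an unadjusted p under 0.05, while 9.17% and 4.44% of all tested miRNAs were called against RS. The intervals of miR-146a-5p and miR-146b-3p allow differences of more than 1 log2 in some direction.

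The courses of the paralogs had no close relation to each other. Over the 18 condition means, the log2 CPM of miR-146a-5p and miR-146b-5p correlated with r = -0.19, and those of the 2 miR-146b arms with r = 0.74. The miRNAs with the course most like that of miR-146b-5p were miR-26b-5p (r = 0.90), miR-98-5p (0.89), miR-26a-5p (0.88), let-7g-5p (0.85) and miR-335-5p (0.85), each over 18 conditions. For miR-146a-5p they were miR-93-5p (0.73), miR-27a-5p (0.72), miR-214-5p (0.72), miR-16-5p (0.71) and miR-19b-3p (0.71). Among all tested miRNAs, miR-146b-5p was the one closest to miR-146b-3p. The points of these correlations share libraries and scaling, and they are descriptions.

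Other miRNAs that NF-kB is known to induce were examined beside the family. Of 8 listed, 6 were tested: miR-155-5p, miR-132-3p, miR-212-3p, miR-21-5p, miR-221-3p and miR-222-3p. From early to late days, 3 fell and 0 rose in PMD-Sen, and 2 fell and 1 rose in DDR-Sen, where 33.6% and 27.5% of all tested miRNAs were called, with list medians of -0.55 and -0.49 log2 beside -0.03 and 0.03 over all 360 tested miRNAs. miR-155-5p, a pro-inflammatory miRNA, changed by -1.28 log2 in PMD-Sen (SE 0.15, edgeR adjusted p 2.16e-07) and by -1.73 in DDR-Sen (SE 0.15, edgeR adjusted p 5.43e-10). It was at 8830 and 9908 CPM in Ctrl, which has no day. On D16 it was at 2234 and 2427 CPM in PMD-Sen and at 815 and 949 in DDR-Sen, and in RS at 634 and 1589. miR-132-3p and miR-212-3p, which share a gene cluster, changed by -1.01 (edgeR adjusted p 0.000214) and -1.42 (edgeR adjusted p 0.0124) in PMD-Sen, and miR-132-3p by -0.53 in DDR-Sen (edgeR adjusted p 0.0376). The rise was that of miR-221-3p in DDR-Sen, by 0.35 (edgeR adjusted p 0.00415).

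miR-155-5p therefore moved in the same direction as miR-146a-5p from early to late days in each series, and opposite to miR-146b-5p in PMD-Sen. Between the series over D1 to D16, 1 of the 6 was higher in PMD-Sen, miR-155-5p by 0.39 log2 (SE 0.10, edgeR adjusted p 0.00302), and 1 was lower, miR-221-3p at -0.33 (SE 0.06, edgeR adjusted p 0.000201), where 20% of all tested miRNAs were called, with a median of -0.21 beside 0.02 over all tested. The difference of miR-155-5p thus had the opposite sign to that of miR-146b-5p.

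Of 7 miRNAs known for targeting parts of NF-kB signaling, 5 were tested: miR-15a-5p, miR-16-5p, miR-181b-5p, miR-31-5p and miR-126-3p. From early to late days, 2 of the 5 fell and 0 rose in each series, beside 33.6% and 27.5% called over all tested miRNAs, so these counts are near the background. In PMD-Sen these were miR-181b-5p, at -0.52 log2 (edgeR adjusted p 0.000402), and miR-31-5p, at -0.75 (edgeR adjusted p 0.000163), and in DDR-Sen they were miR-16-5p, at -1.13 (edgeR adjusted p 1.20e-06), and miR-31-5p, at -1.02 (edgeR adjusted p 3.48e-06). The list medians were -0.36 and -0.45 beside -0.03 and 0.03 over all tested. Between the series, miR-31-5p alone was called, higher in PMD-Sen by 0.53 log2 (SE 0.09, edgeR adjusted p 9.73e-05), with a list median of 0.15.

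**Figure D4:**
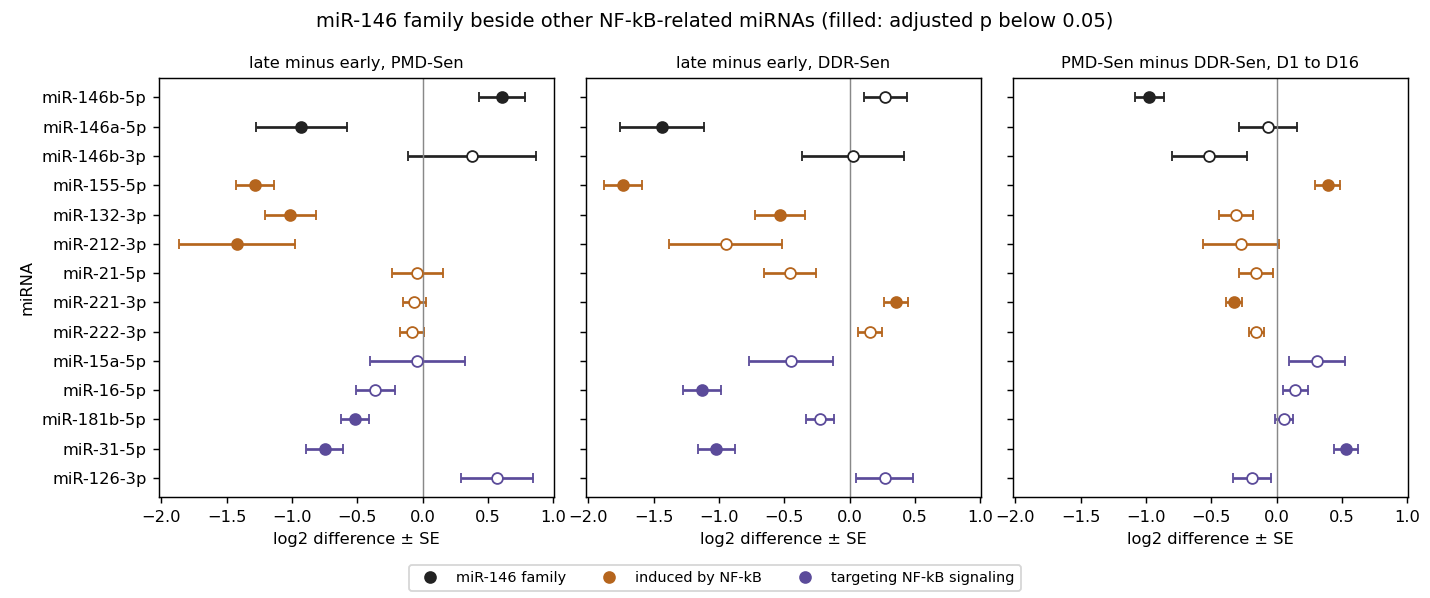
Log2 differences with their SE (bars) of the miR-146 family and of the tested miRNAs that NF-kB induces or that target NF-kB signaling, in 3 comparisons, where filled points have an adjusted p below 0.05. miR-146b-5p rises late in PMD-Sen (0.61) while miR-146a-5p (-0.93) and miR-155-5p (-1.28) fall, and it is the lowest of those plotted between the series (-0.97).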

How the data were processed

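Small RNA libraries (NEXTFLEX Small RNA-Seq Kit v3) were sequenced on a MiSeq. Reads were processed by the authors with the exceRpt pipeline, which trims adapters, maps to GRCh38 and assigns reads to miRBase miRNAs. They deposited expected counts per mature miRNA, not normalized, in which a read that fits several miRNAs is divided. Counts were rounded to whole numbers here. Samples were grouped by their labels, with 0 columns left unassigned. All 36 libraries entered 1 edgeR 4.0.16 model (R 4.3.3) of 18 conditions with TMM, filterByExpr (minimum count 10, 360 miRNAs kept, at least 99.8% of each library) and the quasi-likelihood test, p-values adjusted over the 360 by Benjamini-Hochberg, and a threshold of 0.05. SEs come from the fitted dispersion (18 residual and 12.0 prior degrees of freedom). DESeq2 1.42.0 was an alternative. Ratios were tested by exact permutation (NumPy 2.4.6, SciPy 1.17.1), and the scripts were tested on simulated data. Totals of 81668 to 1933435 limit the precision of low counts. The miRNAs named are the members, the 5 with the highest correlation to each over condition means, and 2 lists related to NF-kB, with values for the listed miRNAs that were called. Members and lists were chosen with earlier results of these data known. Alternatives were other scalings, filters, tests, libraries and days, a replicate block and leaving out libraries. The ratio tests without D0 or D16 were added after seeing the data. Sequences are from RefSeq and gene annotation from GENCODE. mRNA data were not analysed here.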

Additional observations from a re-analysis of the deposited data

How the results depend on the processing

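Of 479 values under settings that left out no library, 435 kept their direction and side of the threshold, 15 lost a call, 17 gained one and 12 changed direction. Numbers of called days or conditions are among these values, and a small change in such a number was counted as kept. An example is the days called for miR-146b-5p between the series, 3 in the main fit. They were 2 with DESeq2's size factors and 4 with the replicate block. The cause of the changes was not tested. With total counts in place of TMM, miR-146a-5p between the series over D1 to D16 was 0.10, miR-146b-3p at D8 was 0.0705, miR-146b-5p was called on 1 day in place of 3, and its test among DDR-Sen days had an adjusted p of 0.0355. DESeq2's size factors gave 0.0156 for miR-146b-3p at D8. DESeq2 gave 0.0152 for that value and adjusted p among days of 0.0487 (miR-146a-5p, PMD-Sen), 0.0376 (miR-146b-5p, DDR-Sen) and 0.0363 (miR-146b-3p, DDR-Sen). With no filter, late minus early was -0.79 for miR-146a-5p in PMD-Sen (adjusted p 0.254) and -0.0161 for miR-146b-3p in DDR-Sen, miR-146a-5p at D0 between the series was -0.0609, and the DDR-Sen test of miR-146b-5p gave 0.0201. A fit of the compared libraries alone gave late minus early changes of -0.88 (miR-146a-5p, PMD-Sen), 0.67 (miR-146b-5p, PMD-Sen) and -0.0201 (miR-146b-3p, DDR-Sen), differences from Ctrl of 1.31 (miR-146b-3p, DDR-Sen D16, called) and 0.90 (miR-146b-5p, RS, not called), and adjusted p among days of 0.078 and 0.0423 (miR-146b-3p, PMD-Sen and DDR-Sen) and 0.0081 (miR-146b-5p, DDR-Sen). With D8 and D16 against D0 and D1, the series difference of miR-146b-3p was -0.26. Without D16, late minus early was -0.61 for miR-146a-5p, 0.14 for miR-146b-5p and -0.27 for miR-146b-3p in PMD-Sen and -0.60 for miR-146b-3p in DDR-Sen, and miR-146a-5p between the series was 0.0831. Without D0, it was -0.46 for miR-146a-5p in PMD-Sen and -0.31 for miR-146b-3p in DDR-Sen. The study's thresholds, applied to the edgeR values, passed miR-146a-5p in 2 conditions and miR-146b-3p in 1, in place of 0. With 5 added counts the arm ratio gave -0.96 late in PMD-Sen and 0.65 between the series. The paralog ratio rise in PMD-Sen was 0.71 without D16 and 1.26 without D0, settings chosen after seeing the data.

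With the replicate block, the 1 changed call was miR-146b-5p between the series at D4 (-1.02, adjusted p 0.0303, called), and its mean over D1 to D16 was -0.98. A check of same-numbered libraries gave no clear sign of pairing, which it cannot exclude. Over 153 pairs of conditions their deviations correlated from -0.46 to 0.37 (median 0.04), with 53 pairs over 0.1 and 35 below -0.1.

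Leaving out 1 library at a time gave 800 values, of which 713 kept direction and call, 47 lost a call, 3 gained one and 37 changed direction. Here too, a small change in a number of calls was counted as kept. The lone library of a condition was assumed to vary like the others. For the arm ratio, the ranges that held a change were 0.25 to 0.60 (PMD-Sen minus DDR-Sen over D1 to D16) and -0.57 to 0.0369 (late minus early, DDR-Sen). For miR-146a-5p, the ranges that held a change were -0.65 to 0.38 (PMD-Sen D16 minus RS), -1.04 to 0.65 (the series difference at D0), -0.19 to 1.48 (the series difference at D3), -0.0446 to 0.55 (the series difference at D6), -0.16 to 0.0644 (PMD-Sen minus DDR-Sen over D1 to D16) and -1.13 to -0.46 (late minus early, PMD-Sen). For miR-146b-3p, the ranges that held a change were -0.42 to 0.16 (DDR-Sen D16 minus RS), -0.78 to 0.091 (PMD-Sen D16 minus RS), -0.18 to 2.38 (the series difference at D0), -0.71 to 0.18 (the series difference at D16), -2.79 to 0.21 (the series difference at D3), -0.26 to 1.06 (the series difference at D4), -1.201 to 0.0779 (the series difference at D6), -0.23 to 0.19 (the series difference at D8), 0.044 to 0.444 (adjusted p among days, DDR-Sen), 0.00815 to 0.476 (adjusted p among days, PMD-Sen), -0.33 to 0.52 (late minus early, DDR-Sen) and -0.0653 to 0.79 (the series difference in late minus early). For miR-146b-5p, the ranges that held a change were 0.99 to 1.27 (DDR-Sen D16 minus Ctrl), -0.0232 to 0.33 (DDR-Sen D16 minus RS), 0.34 to 1.44 (PMD-Sen D16 minus Ctrl), -0.60 to 0.50 (PMD-Sen D16 minus RS), -1.46 to -1.03 (the series difference at D1), -0.81 to 0.31 (the series difference at D16), -1.87 to -1.22 (the series difference at D2), -1.48 to -0.98 (the series difference at D3), 0.79 to 1.15 (RS minus Ctrl), 0 to 3 (conditions called against Ctrl), 1 to 3 (days called between PMD-Sen and DDR-Sen) and 0.37 to 0.86 (late minus early, PMD-Sen). For the paralog ratio, the ranges that held a change were 1.14 to 1.77 (late minus early, PMD-Sen).

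Depth limits miR-146a-5p and miR-146b-3p most, with medians of 12.5 and 6.5 counts a library.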

Other observations

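At the end point, the lists related to NF-kB differed from Ctrl as follows, in comparisons that share the 2 Ctrl libraries. miR-155-5p was at -2.01 log2 on D16 of PMD-Sen (edgeR adjusted p 5.08e-06), -3.41 on D16 of DDR-Sen (edgeR adjusted p 1.22e-10) and -3.08 in RS (edgeR adjusted p 4.94e-10). miR-222-3p was at -0.51, -0.48 and -1.02 log2 (edgeR adjusted p 0.0259, 0.024 and 1.48e-05). miR-221-3p was called in RS only, at -0.67 log2 (edgeR adjusted p 0.00179). miR-126-3p, an endothelial marker that is also known to target NF-kB signaling, was higher by 1.56, 1.64 and 1.85 log2 (edgeR adjusted p 0.00994, 0.00481 and 0.00111), at 18.4 to 192 CPM over all libraries. Others of the list that targets NF-kB signaling moved both ways. On D16 of DDR-Sen, miR-16-5p was at -1.36 log2 (edgeR adjusted p 0.000275) and miR-31-5p at -0.95 (edgeR adjusted p 0.0056). In RS, miR-16-5p was at -1.34, miR-15a-5p at -2.79 and miR-181b-5p at 0.68 (edgeR adjusted p 0.000237, 0.00102 and 0.00616). Of the 6 tested miRNAs induced by NF-kB, 0 were called higher in any of these 3 comparisons, where 16.7%, 23.1% and 22.5% of all tested miRNAs were called in either direction. With 6 miRNAs, these counts are given as a description.

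Some replicates of the members stood far apart. On D3 of DDR-Sen, the ratio of miR-146b-5p to miR-146a-5p was 79.9 in one library, with 4 counts of miR-146a-5p, and 18.8 in the other, with 10 counts. On D0 of DDR-Sen, the 3p arm made up 0.387% of the miR-146b reads in one library and 3.03% in the other. On D0 of PMD-Sen, miR-146a-5p was at 45.9 CPM in a library with 5 counts of it and at 145 CPM in a library with 13.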
